A study of Mus musculus with 6 samples.

Results

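The enzymes of fatty acid beta-oxidation in mitochondria and in peroxisomes were examined in subcutaneous white fat of mice that lack the transcription factor YY1 in brown fat. The group comprised 32 named genes, chosen by their known function. All 32 were among the 12394 genes measured. Each was represented by its brightest probe set, meaning the one with the highest mean log2(intensity + 1) over all arrays. By where the proteins are known to act, 15 were counted as mitochondrial and 12 as peroxisomal. The remaining 5 (Eci2, Ech1, Acad10, Acad11 and Amacr) are found in both organelles or have no settled place, and were kept apart.

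Beta-oxidation shortens a fatty acyl-CoA from its carboxyl end in a cycle of dehydrogenation, hydration, a further dehydrogenation and thiolytic cleavage. Mitochondria burn most long, medium and short chains this way and pass the electrons to the respiratory chain. Peroxisomes take very long, branched and other unusual chains, pass the electrons of the first step to oxygen, and export shortened products. In brown and beige adipocytes mitochondrial beta-oxidation supplies the fuel for heat production, and many genes of both systems are known targets of the nuclear receptor PPAR alpha and its relatives.

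The mutant mice, YY1bKO, carried YY1flox/flox alleles and Ucp1Cre, a Cre recombinase driven by the promoter of the brown fat uncoupling protein. The control mice carried the floxed alleles without Ucp1Cre. All mice were 8 weeks old, of a mixed C57BL6 and 129 background, and received a high fat diet for 2 weeks. Each group had 3 arrays. Nothing states whether the arrays of a group came from separate mice, so every p-value measures the spread between these samples only. Ucp1Cre acts mainly in thermogenic adipocytes, and RNA was taken from whole fat, so fewer cells of a type and less RNA per cell cannot be told apart. No group with Ucp1Cre alone was analysed here, so an effect of the transgene and an effect of YY1 loss cannot be told apart.

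The targeted gene, Yy1, had log2 values of 10.13, 10.41 and 10.20 in YY1bKO arrays and 10.33, 10.52 and 10.62 in control arrays (limma adjusted p = 0.574). Whether its probe set lies in the deleted part is not given, so this checks the labels only in part. The adipocyte genes Adipoq and Fabp4 had means of 14.21 and 14.63 in YY1bKO and 14.08 and 14.54 in controls. Some arrays stood apart in markers of other tissue. Control replicate 2 was high in genes of skin and mammary epithelium, with a mean centred log2 value of 3.39 over 8 genes, where the other arrays lay between -0.93 and -0.06. YY1bKO replicate 1 was high in skeletal muscle genes, at 2.58 over 12 genes against -0.68 to -0.22 elsewhere. B cell genes varied in both groups, at -2.44, 1.28 and -0.04 in YY1bKO and -2.08, 0.95 and 2.33 in controls. Over the lists, 12 of 12 muscle, 0 of 6 B cell and 1 of 8 epithelial genes had positive differences, beside 6318 of all 12394 genes. These signs depend on the single arrays named above. The epithelial median was -1.34 over all arrays and 0.32 without control replicate 2. Many of the values that control replicate 2 moved strongly are also given without it.

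**Figure D1:**
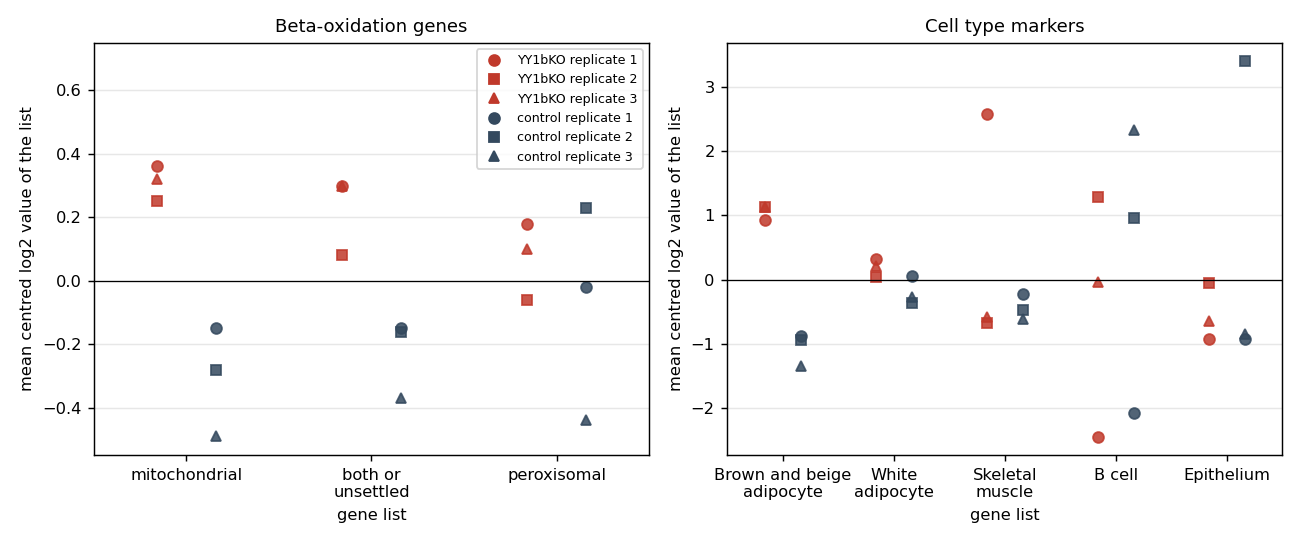
Mean log2 value of each gene list on each array after each gene was centred on its mean over the 6 arrays, for beta-oxidation genes (left) and cell type markers (right; vertical scales differ). The mitochondrial genes lie between 0.25 and 0.36 in YY1bKO and between -0.49 and -0.15 in controls, whereas the peroxisomal genes overlap, with control replicate 2 highest at 0.23.

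Because many of the genes differed in the same direction, their promoters were searched for motifs. The RefSeq promoter table (build GRCm38.p6, from 250 bases before to 50 after each gene's start) held 28 promoters for 27 of the 32 genes, without Acaa2, Amacr, Decr1, Abcd2 and Hsd17b4. The letters AAGATGG, a core of the sequence that YY1 binds, were searched on both strands. So was AGGTCA, the half-site of nuclear receptors such as PPAR alpha. AAGATGG occurred in 5 of the 28 promoters (17.9%), those of Hadha, Ech1, Acadvl, Eci1 and Hsd17b10, and in 6.34% of all 32851 promoters. AGGTCA occurred in 5 (17.9%), those of Phyh, Acadm, Scp2, Echs1 and Acadvl, and in 16.3% of all. The longer TCAAGGTCA of estrogen-related receptors, which contains AGGTCA, occurred in 0 of the 28 and in 0.423% of all. The direct repeat AGGNCANAGGNCA, to which PPAR alpha binds, occurred in 0 of the 28 and in 0.381% of all. Median GC content was 59.5% in these promoters and 52.7% in all, and its part in the matches was not tested.

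The promoters below are from genes with large differences, 3 of them mitochondrial and 2 peroxisomal. They were picked with the matches known, so that all 3 mitochondrial ones hold AAGATGG, and they do not stand for the other genes. They are written 5′ to 3′ on the gene's strand with matches to AAGATGG or AGGTCA on either strand in capitals. In Eci1 and Hadha the match to AAGATGG lies at positions 18 to 24 and 30 to 36 after the start. That of Hsd17b10, whose promoter is not printed, lies at 10 to 16 after the start, and that of Ech1 at -120 to -114. The motif contains ATG, and whether this is the translation start in Eci1, Hadha and Hsd17b10 was not examined. In Acadvl both motifs lie before the start, AAGATGG at -102 to -96 and AGGTCA at -87 to -82. In Phyh the half-site is on the opposite strand at positions 37 to 42, and in Ehhadh neither motif occurs.
Eci1 promoter, chr17:24426433-24426732, plus strand: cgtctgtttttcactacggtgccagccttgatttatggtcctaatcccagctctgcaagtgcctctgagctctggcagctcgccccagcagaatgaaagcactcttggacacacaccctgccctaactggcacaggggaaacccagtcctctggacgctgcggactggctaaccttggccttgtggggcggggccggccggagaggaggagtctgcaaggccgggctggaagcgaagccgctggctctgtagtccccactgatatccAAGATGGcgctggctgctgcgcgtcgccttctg
Acadvl promoter, chr11:70015379-70015678, minus strand: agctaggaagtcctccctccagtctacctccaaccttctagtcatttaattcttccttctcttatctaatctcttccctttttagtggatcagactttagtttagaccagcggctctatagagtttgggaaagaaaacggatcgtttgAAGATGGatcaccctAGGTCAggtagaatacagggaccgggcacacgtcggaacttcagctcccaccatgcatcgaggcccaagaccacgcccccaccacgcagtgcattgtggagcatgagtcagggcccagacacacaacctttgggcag
Hadha promoter, chr5:30154931-30155230, minus strand: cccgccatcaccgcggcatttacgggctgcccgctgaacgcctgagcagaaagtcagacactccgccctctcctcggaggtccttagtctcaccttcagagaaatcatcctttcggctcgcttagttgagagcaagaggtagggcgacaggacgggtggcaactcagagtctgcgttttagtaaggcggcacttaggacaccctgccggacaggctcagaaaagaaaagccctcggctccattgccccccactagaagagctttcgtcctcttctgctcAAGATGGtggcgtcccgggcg
Phyh promoter, chr2:4918746-4919045, plus strand: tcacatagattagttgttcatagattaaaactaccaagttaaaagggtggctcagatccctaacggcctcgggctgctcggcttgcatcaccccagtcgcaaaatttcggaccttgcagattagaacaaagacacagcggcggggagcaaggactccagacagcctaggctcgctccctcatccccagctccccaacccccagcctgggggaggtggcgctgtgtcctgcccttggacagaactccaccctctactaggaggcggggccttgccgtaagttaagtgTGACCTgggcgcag
Ehhadh promoter, chr16:21787785-21788084, minus strand: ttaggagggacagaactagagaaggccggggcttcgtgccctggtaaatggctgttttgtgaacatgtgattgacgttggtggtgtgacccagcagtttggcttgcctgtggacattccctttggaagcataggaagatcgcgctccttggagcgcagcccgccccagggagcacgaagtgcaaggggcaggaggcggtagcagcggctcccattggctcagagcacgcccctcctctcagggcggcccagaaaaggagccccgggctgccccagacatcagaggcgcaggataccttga

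Mitochondrial beta-oxidation genes had higher mean values in YY1bKO fat at every step of the cycle. All 15 had a positive log2 difference, from 0.25 to 1.09 with a median of 0.61, against a median of 0.00 over all genes. None passed an adjusted p of 0.05 over all genes, a threshold that 4 genes, 0.0323% of those tested, passed by limma. At an unadjusted p under 0.05, 12 of the 15 were higher and 0 were lower, where 8.45% of all genes were higher and 1.99% lower. In 13 of the 15 every YY1bKO array exceeded every control array, as in 11.5% of all genes.

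**Figure D2:**
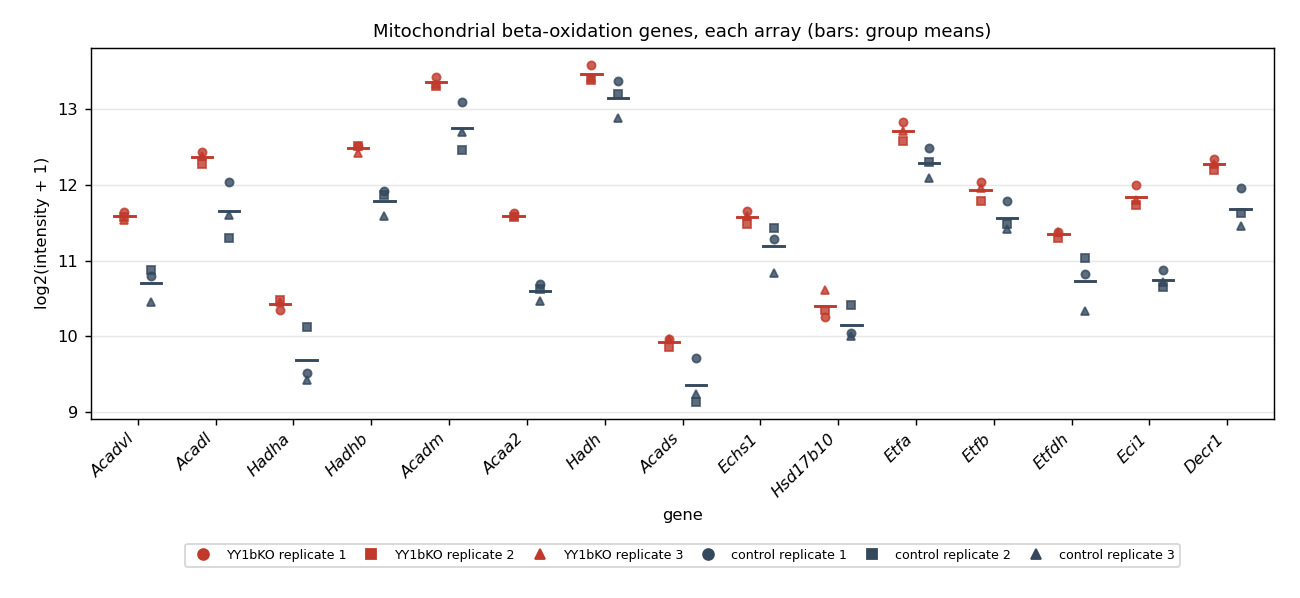
Log2(intensity + 1) of the 15 mitochondrial genes (horizontal axis) on each of the 3 YY1bKO (red) and 3 control (dark) arrays, with bars at group means. YY1bKO points lie above all control points except in Hsd17b10 and Etfb, and the control points are more spread.

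The largest difference was that of Eci1, the enoyl-CoA isomerase that lets unsaturated chains re-enter the cycle. Eci1 had log2 values of 11.99, 11.73 and 11.80 in YY1bKO arrays, against 10.87, 10.65 and 10.72 in control arrays. The arrays of a group lay within 0.26 of each other and the groups were separated by far more. The difference was 1.09 ± 0.11 (SE, n = 3 each, as for every difference given with ±; 2.12-fold), with an adjusted p of 0.0591 that just missed the threshold. Decr1, the dienoyl-CoA reductase that acts with it on polyunsaturated chains, was 12.34, 12.19 and 12.27 in YY1bKO arrays and 11.95, 11.62 and 11.46 in control arrays, without overlap. Its difference was 0.59 ± 0.15 (adjusted p = 0.275), and its second probe set gave 0.78.

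Among the 4 genes for long chains, all were higher in each YY1bKO array than in any control array, beside 11.5% of all genes. On the probe sets used, their differences were close together. Acadvl encodes the very long chain acyl-CoA dehydrogenase of the inner membrane, which takes the first step. It had values of 11.64, 11.57 and 11.54 in YY1bKO arrays, against 10.79, 10.88 and 10.46 in control arrays. Its difference of 0.87 ± 0.13 (1.83-fold, adjusted p = 0.145) exceeded the spread of either group. Acadl, the long chain acyl-CoA dehydrogenase, was 12.43, 12.27 and 12.38 in YY1bKO arrays and 12.04, 11.30 and 11.60 in control arrays. Its control arrays were widely spread, and the difference was 0.71 ± 0.19 (adjusted p = 0.310). The second probe set of Acadl, dim at a mean of 4.57, gave 0.37.

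Hadha and Hadhb encode the subunits of the trifunctional protein, which carries long chains through the later steps. They are neighbours read in opposite directions, and their promoter windows share 228 bases. Hadha had values of 10.35, 10.48 and 10.46 in YY1bKO arrays, against 9.52, 10.12 and 9.42 in control arrays, with control replicate 2 well above the other controls. Hadhb had values of 12.51, 12.51 and 12.42 in YY1bKO arrays, against 11.91, 11.87 and 11.59 in control arrays. The differences were 0.74 ± 0.20 for Hadha (adjusted p = 0.295) and 0.69 ± 0.11 for Hadhb (adjusted p = 0.147). Without control replicate 2 that of Hadha was 0.96. The second probe set of Hadhb, also bright at a mean of 11.49, gave a smaller difference of 0.35.

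The 6 genes that act on medium and short chains were less uniform. Their median difference was 0.48, against 0.73 for the long chain genes. At an unadjusted p under 0.05, 3 of the 6 against all 4 were higher, beside 8.45% of all genes. This order is a description of 10 genes and was not tested. The medians differed by 0.25 over all arrays. Without control replicate 2 they differed by 0.39. In that fit 5 of the 6 and all 4 were higher at an unadjusted p under 0.05, beside 6.79% of all genes.

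Acaa2, the thiolase that releases acetyl-CoA from medium chains, stood out in this class. Its values were 11.62, 11.57 and 11.59 in YY1bKO arrays and 10.69, 10.62 and 10.47 in control arrays. The YY1bKO arrays lay within 0.05 of each other and the groups were far apart. The difference was 1.00 ± 0.09 (2.00-fold), with an adjusted p of 0.0539 and a range from 0.0353 to 0.499 over 16 alternative settings. Its other probe sets gave 0.91 and 1.07. Acadm, the medium chain acyl-CoA dehydrogenase, was 13.42, 13.30 and 13.33 in YY1bKO arrays and 13.09, 12.45 and 12.69 in control arrays. Acads, the short chain dehydrogenase, was 9.96, 9.86 and 9.97 in YY1bKO arrays and 9.71, 9.14 and 9.24 in control arrays. In both genes control replicate 1 came nearest to the YY1bKO arrays. Their differences were 0.61 ± 0.17 and 0.57 ± 0.16 (adjusted p = 0.323 and 0.324).

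Among the genes for medium and short chains, those of the hydratase and hydroxyacyl-CoA dehydrogenase steps differed least. Echs1, the short chain enoyl-CoA hydratase, was 11.65, 11.48 and 11.59 in YY1bKO arrays and 11.29, 11.43 and 10.84 in control arrays. Hadh, the hydroxyacyl-CoA dehydrogenase of medium and short chains, was 13.58, 13.38 and 13.40 in YY1bKO arrays and 13.36, 13.19 and 12.88 in control arrays. In both the groups were adjacent and did not overlap, with differences of 0.38 (95% confidence interval -0.03 to 0.79) and 0.31 (-0.05 to 0.66). Hsd17b10, which acts in isoleucine breakdown and is also a subunit of mitochondrial RNase P, was 10.26, 10.35 and 10.61 in YY1bKO arrays and 10.05, 10.41 and 10.01 in control arrays. These groups overlapped, and the difference was 0.25 (-0.12 to 0.62), the smallest of the 15.

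Electrons from the acyl-CoA dehydrogenases pass through the electron transfer flavoprotein to ubiquinone. Etfdh, the oxidoreductase at the membrane, was 11.37, 11.30 and 11.38 in YY1bKO arrays and 10.82, 11.04 and 10.33 in control arrays. The YY1bKO arrays were close together, above a wide control range, and the difference was 0.62 ± 0.19 (adjusted p = 0.341). Etfa, the alpha subunit of the flavoprotein, was 12.82, 12.57 and 12.71 in YY1bKO arrays and 12.48, 12.30 and 12.09 in control arrays. Etfb, the beta subunit, was 12.04, 11.79 and 11.96 in YY1bKO arrays and 11.79, 11.48 and 11.41 in control arrays. Etfa did not overlap between groups, while the lowest YY1bKO and highest control array of Etfb were level. The differences of Etfa and Etfb were 0.41 ± 0.13 and 0.37 ± 0.14 (adjusted p = 0.371 and 0.437).

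Markers of brown and beige adipocytes moved in the same direction as the mitochondrial genes, with positive differences in 6 of 6. At an unadjusted p under 0.05, 4 of the 6 were higher, beside 8.45% of all genes. Dio2 (0.07 ± 0.12) and Cidea (1.23 ± 0.59, highest in control replicate 2) overlapped between groups. The list mean of the 6 markers was 0.92, 1.12 and 1.12 on the YY1bKO arrays and -0.88, -0.94 and -1.34 on the control arrays. Ucp1, the uncoupling protein, rose by 5.25 ± 0.14 (limma adjusted p = 0.000191), with 10.65, 11.01 and 10.91 in YY1bKO arrays and 5.71, 5.67 and 5.43 in control arrays. The part of thermogenic adipocytes in the beta-oxidation result was not tested. White adipocyte markers had a list mean of 0.32, 0.04 and 0.21 in YY1bKO arrays and 0.06, -0.36 and -0.27 in control arrays, overlapping between groups. Of these 8 markers 7 had positive differences, with a median of 0.28. At an unadjusted p under 0.05, 3 were higher, beside 8.45% of all genes. They were Lipe (0.83 ± 0.17), Agt (0.83 ± 0.14) and Nnat (0.95 ± 0.11), differences of the size seen in the mitochondrial genes.

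The mitochondrial genes varied together from array to array. Control replicate 3, the array with the highest B cell genes, held the lowest value of 11 of the 15, and YY1bKO replicate 1, with the highest muscle genes, held the highest value of 11. The peroxisomal genes shared this in part. Among the 12 peroxisomal genes control replicate 3 was lowest in 7. In 8 of those 12 YY1bKO replicate 1 was the highest of its group, and in 3 the highest of all arrays. The share over all genes was not counted. The part of lymphoid or muscle tissue in the result was not tested. The mitochondrial median was 0.51 without control replicate 3 and 0.57 without YY1bKO replicate 1. In each case 10 of the 15 mitochondrial genes were higher at an unadjusted p under 0.05, beside 7.29% and 5.02% of all genes. Without YY1bKO replicate 1 and control replicate 2 together, 7 of the 15 were higher at that threshold, beside 3.71% of all genes, and the median was 0.50. Muscle markers were not high on the other YY1bKO arrays, with list means of -0.68 and -0.58 against -0.62 to -0.22 in controls. Acta1, the skeletal muscle actin, was the exception (9.04 and 10.62 on those 2 arrays, 7.51 to 8.29 in controls). The range over the 3 YY1bKO arrays was narrower than that over the 3 control arrays in 14 of the 15 genes, as it was in 73.9% of all genes.

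Of the genes found in both organelles or with no settled place, all 5 had positive differences and 3 did not overlap, beside 11.5% of all genes separated in that direction. Acad11, an acyl-CoA dehydrogenase of very long chains, was 11.03, 10.98 and 11.26 in YY1bKO arrays and 10.44, 10.63 and 10.14 in control arrays. Its difference was 0.69 ± 0.16 (adjusted p = 0.249), with 0.66 from its second probe set. Ech1, a dienoyl-CoA isomerase, was 13.05, 12.98 and 13.02 in YY1bKO arrays and 12.73, 12.60 and 12.43 in control arrays. Eci2, the second enoyl-CoA isomerase, was 10.49, 10.41 and 10.55 in YY1bKO arrays and 10.24, 9.69 and 9.89 in control arrays. The groups were apart in both, with differences of 0.43 ± 0.11 for Ech1 and 0.55 ± 0.15 for Eci2 (adjusted p = 0.275 and 0.318). Eci2 thus differed by about as much as the median mitochondrial gene and less than Eci1 (1.09). Acad10, a related dehydrogenase, and Amacr, the racemase that prepares branched chains, overlapped between groups, with differences of 0.28 ± 0.17 and 0.33 ± 0.23. Without each array in turn Acad10 ranged from 0.16 (without control replicate 1) to 0.47 (without control replicate 2). Amacr was low in YY1bKO replicate 2 alone of its group (8.23, 7.37 and 8.08), and its difference was 0.59 without that array and 0.16 without YY1bKO replicate 1.

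The peroxisomal genes were divided. Of 12, 7 had positive and 5 negative differences, with a median of 0.16, and 2 were higher at an unadjusted p under 0.05, Ehhadh and Phyh, beside 8.45% of all genes. No gene of the class was lower at that threshold. In the same 2 genes the groups did not overlap, beside 11.5% of all genes, and 0 were separated in the lower direction, beside 5% of all genes.

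**Figure D3:**
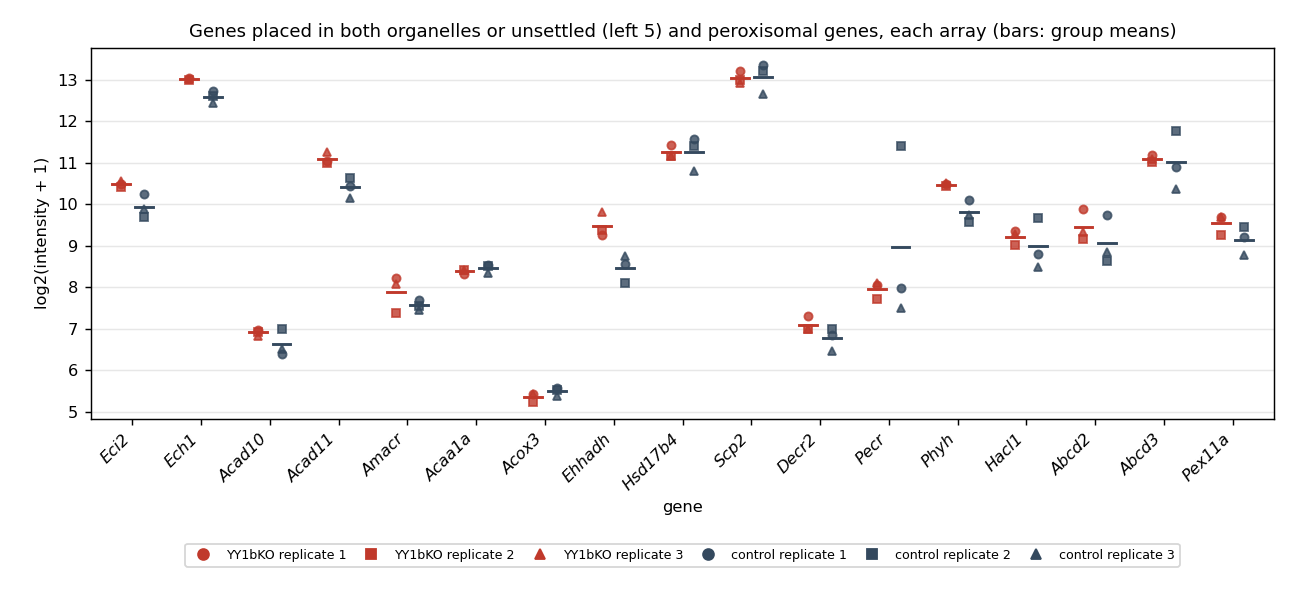
Log2(intensity + 1) of the 5 genes found in both organelles or unsettled and the 12 peroxisomal genes (horizontal axis) on each of the 3 YY1bKO (red) and 3 control (dark) arrays, with bars at group means. Among peroxisomal genes the groups separate in Ehhadh and Phyh, and control replicate 2 (square) is far above the others in Pecr.

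Ehhadh encodes the bifunctional hydratase and dehydrogenase of peroxisomal beta-oxidation that handles straight and dicarboxylic chains. It had values of 9.26, 9.38 and 9.80 in YY1bKO arrays, against 8.57, 8.09 and 8.75 in control arrays. The lowest YY1bKO array was well above the highest control. The difference was 1.01 ± 0.22 (2.01-fold, adjusted p = 0.244), about that of Acaa2 and Eci1 in mitochondria. Without control replicate 2 it was 0.82.

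The other genes of the peroxisomal cycle did not differ in the same way. Hsd17b4, the second bifunctional enzyme, which serves very long and branched chains, was 11.43, 11.15 and 11.17 in YY1bKO arrays and 11.56, 11.41 and 10.79 in control arrays. Its YY1bKO arrays lay within the control range, and the difference was 0.00 (95% confidence interval -0.53 to 0.53). Acaa1a, a peroxisomal thiolase, was 8.31, 8.41 and 8.42 in YY1bKO arrays and 8.54, 8.51 and 8.35 in control arrays. Scp2, whose gene encodes both sterol carrier protein and a thiolase for branched chains, was 13.22, 12.98 and 12.91 in YY1bKO arrays and 13.36, 13.20 and 12.65 in control arrays. The groups overlapped in both, with differences of -0.09 (-0.32 to 0.15) for Acaa1a and -0.03 (-0.53 to 0.46) for Scp2. The intervals of Hsd17b4 and Scp2 include differences as large as those of Hadh, Echs1 and Hsd17b10. The probe sets of Acaa1a, Hsd17b4 and Scp2 disagreed in sign, and Scp2 had 4 from -0.03 to 0.24. Acaa1a has a near-identical copy, Acaa1b, which was measured separately and differed by 0.42 ± 0.14, and their probe sets may share signal. Acox3, the oxidase of branched acyl-CoAs, was dim, at 5.36 ± 0.11 in YY1bKO and 5.5 ± 0.10 in controls (SD, n = 3 each), close to the lower quartile of 4.95 to 5.03.

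The alpha-oxidation genes remove a single carbon from phytanic acid and similar chains that beta-oxidation cannot start on. Phyh, the phytanoyl-CoA hydroxylase, was 10.49, 10.43 and 10.50 in YY1bKO arrays and 10.11, 9.57 and 9.74 in control arrays. The YY1bKO arrays were close together above all controls, and the difference was 0.67 ± 0.15 (1.59-fold, adjusted p = 0.249). Hacl1, the lyase of the next step, was 9.35, 9.02 and 9.27 in YY1bKO arrays and 8.81, 9.67 and 8.48 in control arrays. Control replicate 2 was its highest array, and the difference was 0.23 ± 0.31 over all arrays and 0.57 ± 0.16 without it.

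The reductases and membrane proteins overlapped between the groups. Pecr, a trans-enoyl-CoA reductase, was 8.06, 7.71 and 8.09 in YY1bKO arrays and 7.97, 11.41 and 7.49 in control arrays. Control replicate 2, the array with high epithelial genes (Krt14 at 12.45 there and between 4.68 and 5.25 elsewhere), alone set its difference of -1.0 ± 1.01. Without that array the Pecr difference was 0.23 ± 0.20, and its second probe set gave -0.67 over all arrays. Decr2, the peroxisomal dienoyl-CoA reductase, was 7.31, 6.99 and 7.0 in YY1bKO arrays and 6.84, 7.0 and 6.47 in control arrays, a difference of 0.33 ± 0.17. Abcd3, a carrier of branched and dicarboxylic acyl-CoAs, was 11.19, 11.01 and 11.10 in YY1bKO arrays and 10.90, 11.76 and 10.36 in control arrays. Again control replicate 2 was highest, and the difference of 0.09 ± 0.34 became 0.47 ± 0.18 without it. Abcd2, a carrier of very long chain acyl-CoAs, was 9.89, 9.17 and 9.32 in YY1bKO arrays and 9.75, 8.62 and 8.84 in control arrays. Replicate 1 was the high array in both groups, and the difference was 0.39 ± 0.34. It was 0.73 without control replicate 1, 0.17 without control replicate 2, 0.27 without control replicate 3 and 0.18 without YY1bKO replicate 1. Pex11a, which acts in peroxisome division, was 9.70, 9.26 and 9.68 in YY1bKO arrays and 9.21, 9.45 and 8.78 in control arrays, a difference of 0.40 ± 0.21. Without control replicate 3 the difference was 0.22 for Pex11a and 0.18 for Decr2. The adjusted p of these 5 genes lay between 0.588 and 0.948.

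**Figure D4:**
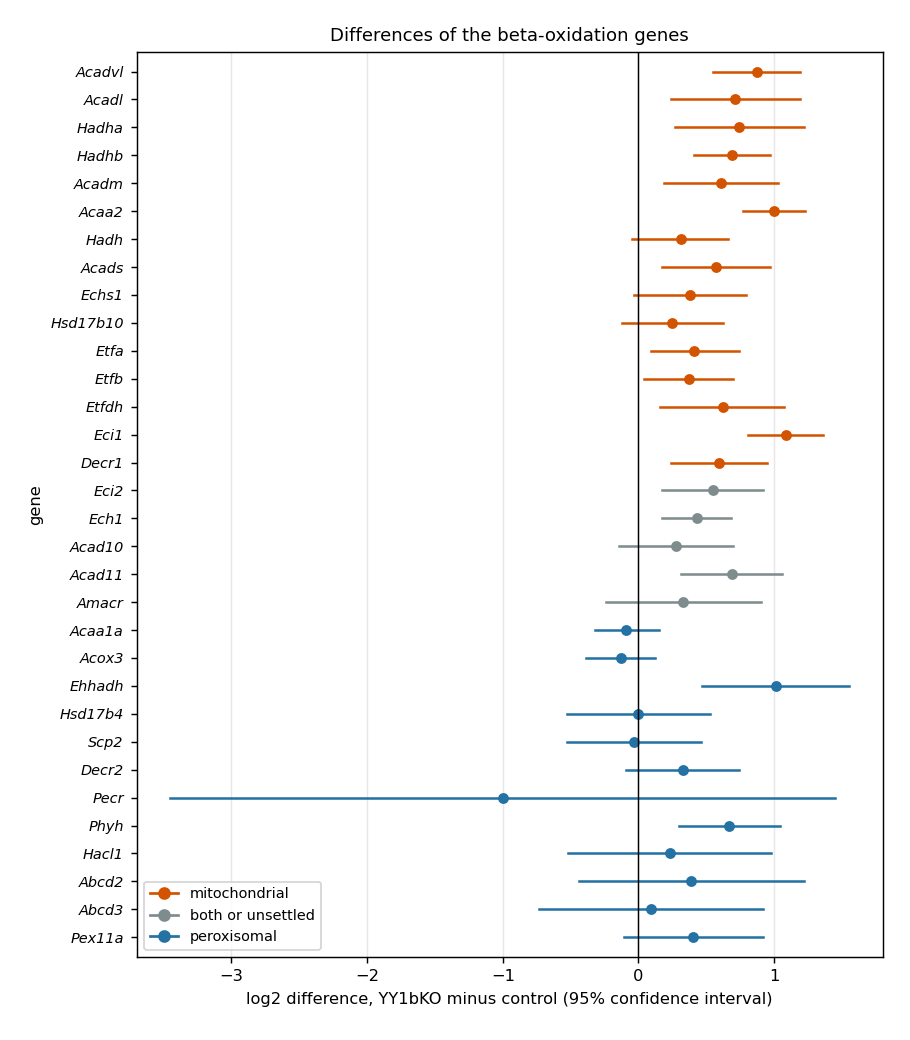
Log2 difference, YY1bKO minus control, of each of the 32 genes (points) with its 95% confidence interval (lines), by organelle. The intervals of 12 mitochondrial genes lie above 0, as do those of Eci2, Ech1, Acad11, Ehhadh and Phyh.

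Set side by side, the mitochondrial median was 0.61 and the peroxisomal median 0.16, a difference of 0.45 between the medians that was not tested, since the genes were chosen with earlier results known. The mitochondrial mean minus the peroxisomal mean was 0.17, 0.30 and 0.21 on the YY1bKO arrays and -0.13, -0.51 and -0.05 on the control arrays. All YY1bKO arrays were above all control arrays, and control replicate 2 was the lowest. Without that array the medians were 0.54 and 0.34, and their difference was 0.20. In the same fit 13 of 15 mitochondrial and 6 of 12 peroxisomal genes were higher at an unadjusted p under 0.05, beside 6.79% of all genes. The additional peroxisomal genes were Decr2, Hacl1, Abcd3 and Pex11a, while Acaa1a, Acox3, Hsd17b4 and Scp2 had differences between -0.12 and 0.07. Without control replicate 3 the peroxisomal median was -0.08, and without YY1bKO replicate 1 it was 0.10. The contrast between the organelles therefore had the same sign without each array in turn, from 0.20 to 0.59, but its size rested on control replicate 2. Whether the epithelial tissue in that array has a part in its high Pecr, Hacl1 and Abcd3 values was not tested.

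**Figure D5:**
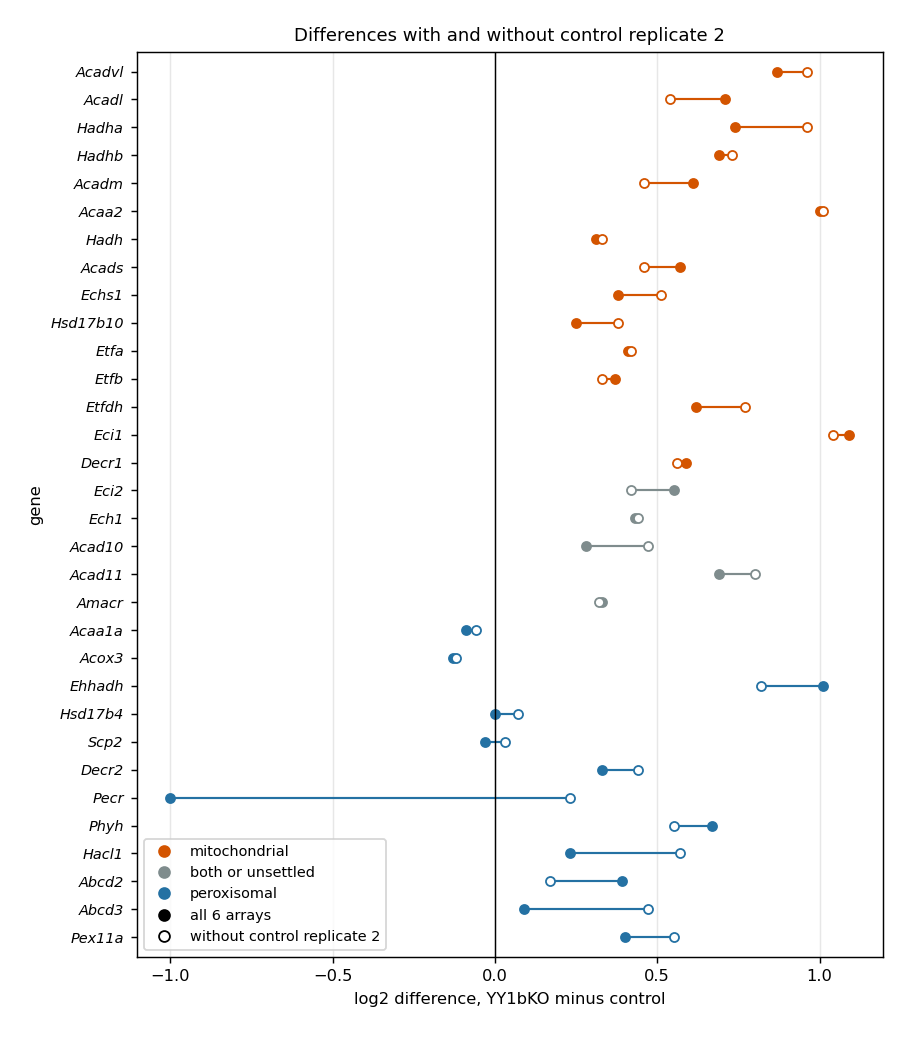
Log2 difference, YY1bKO minus control, of each gene over all 6 arrays (filled) and without control replicate 2 (open), by organelle. Pecr is at 0.23 without that array and -1.0 with it, Abcd3 at 0.47 and 0.09, and Hacl1 at 0.57 and 0.23, whereas Acaa2 and Eci1 move by at most 0.05.

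Other genes of the pathway were taken as 7 lists, whose counts at an unadjusted p under 0.05 stand beside 8.45% of all genes, or 6.79% without control replicate 2. Of 5 measured carnitine shuttle genes, which bring long chains into mitochondria, 2 were higher at an unadjusted p under 0.05, Cpt2 and Slc22a5, with a median of 0.36. Without control replicate 2 they were 4 of 5, with a median of 0.54. Cpt2, the inner membrane transferase, was 11.71, 11.42 and 11.53 in YY1bKO arrays and 11.16, 10.69 and 10.58 in control arrays, without overlap (0.74 ± 0.18, adjusted p = 0.259). Slc22a5, the carnitine transporter of the plasma membrane, differed by 0.48 ± 0.11, and Cpt1a, the outer transferase, by -0.26 ± 0.13. Cpt1b was not among the genes tested. Of 4 acyl-CoA synthetases measured, 0 were higher or lower at that threshold by limma, with differences from -0.86 to 0.05. The lowest, Acsl4, was at 10.94 in control replicate 2 and at 9.31 and 8.88 in the other controls, and its difference was -0.24 without that array. The median of the 4 was -0.30, and -0.08 without that array.

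Of 9 further peroxisomal fatty acid genes, 3 were higher at an unadjusted p under 0.05. Positive differences were found in 7 of the 9, with a median of 0.36, above the 0.16 of the 12 peroxisomal genes. Without control replicate 2 there were also 3 higher, with a median of 0.32, beside 0.34 for the 12. Slc27a2, an acyl-CoA synthetase of very long chains, had values of 8.00, 7.93 and 7.89 in YY1bKO arrays and 4.65, 4.37 and 3.78 in control arrays. Its rise was 3.67 ± 0.22 (limma adjusted p = 0.0114). All control values were dimmer than the array quartile given above for Acox3, so this size is only approximate. The other genes past the unadjusted threshold were Acaa1b and Acot4, a thioesterase (0.49 ± 0.16, dim in both groups). Acox2, the oxidase of branched chains and bile acid precursors, was at 7.42 in control replicate 2 and between 4.35 and 4.61 elsewhere. Of 10 peroxins, the proteins that assemble peroxisomes, 1 was higher at an unadjusted p under 0.05, Pex13 (0.55 ± 0.15), a share near that of all genes, and the median was 0.14. Without control replicate 2 there were 3, with a median of 0.28.

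Related mitochondrial acyl-CoA enzymes, most of them of amino acid and propionate breakdown, were higher in 6 of 11 at an unadjusted p under 0.05. Their median was 0.50. Without control replicate 2 they were 4 of 11, with a median of 0.42. Hibch, a hydrolase of valine breakdown, was 10.93, 10.76 and 10.92 in YY1bKO arrays and 10.31, 9.85 and 9.99 in control arrays (0.82 ± 0.14, adjusted p = 0.152). Ivd, the isovaleryl-CoA dehydrogenase, differed by 0.59 ± 0.14 and Mmut, the methylmalonyl-CoA mutase, by 0.52 ± 0.16. The exception was Acad9 (-0.84 ± 0.60), an acyl-CoA dehydrogenase that is not an enzyme of amino acid breakdown. It was at 11.58 in control replicate 2 and between 9.15 and 9.67 elsewhere, with a difference of -0.11 without that array. Of the ketone body genes, Oxct1 and Bdh1 were measured, with differences of -0.13 ± 0.14 and -1.33 ± 1.04. Bdh1 was at 8.88 in control replicate 2 and at 4.54 and 7.01 in the other controls, and its difference was -0.30 ± 0.73 without that array.

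Of 9 regulators, 4 were higher at an unadjusted p under 0.05, with a median of 0.24. They were also 4 without control replicate 2, with a median of 0.1. Mlycd, which removes the carnitine transferase inhibitor malonyl-CoA, was 8.67, 8.61 and 8.62 in YY1bKO arrays and 8.15, 8.35 and 7.99 in control arrays (0.47 ± 0.12, adjusted p = 0.274). Acacb, which makes malonyl-CoA at the mitochondrion, was also higher, at 9.10, 9.47 and 9.97 in YY1bKO arrays and 7.22, 9.03 and 7.91 in control arrays (1.46 ± 0.48, adjusted p = 0.380). The Acacb difference was 1.95 ± 0.32 without control replicate 2. The enzymes that make and remove this inhibitor thus differed in the same direction. Ppargc1a, the coactivator of mitochondrial biogenesis, was 7.14, 6.77 and 6.32 in YY1bKO arrays and 6.24, 5.60 and 5.64 in control arrays (0.92 ± 0.27). Ppara, the receptor PPAR alpha, differed by 0.97 ± 0.37 with control replicate 2 level with YY1bKO replicate 2, and Esrra by -0.04 ± 0.11. The Ppara difference was 1.38 ± 0.20 without control replicate 2. Over these 7 lists 16 genes were higher at an unadjusted p under 0.05. There were 8 without control replicate 3, beside 7.29% of all genes, 10 without YY1bKO replicate 1, beside 5.02%, and 9 without YY1bKO replicate 3, beside 4.55%.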

How the data were processed

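Total RNA from subcutaneous white fat was copied into biotin-labelled RNA and hybridised to Affymetrix arrays, as the labels' protocols describe. The authors deposited 1 intensity per probe set, made with RMA per the submitters' processing notes (version not given in the sources used). Values between 5.4 and 25730.1 show a linear scale. RMA equalises the arrays' distributions, and medians lay between 123.15 and 130.35. The small number of arrays limits precision. No 2 arrays were duplicates (at most 212 of 22690 probe sets identical).

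Of the probe sets, 20393 had 1 gene symbol in the platform's annotation, 691 several and 1606 none, and only the first were used. A gene was represented by its probe set with the highest mean. Values were taken as log2(intensity + 1), whose pseudocount of 1 understates the change of dim genes, with no filter, and tested over all 12394 genes by limma's lmFit and eBayes (version 3.58.1, R 4.3.3; 2-sided, Benjamini-Hochberg, threshold 0.05). The step was tested on simulated data. Lists were described by counts and medians.

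The genes, lists and motifs were chosen with earlier results of these data known. All 32 genes are named, with up to 3 genes of smallest p from each other list and genes past the adjusted threshold. Cpt1a, Acox2, Acad9, Ppara, Esrra and the marker genes other than Ucp1 were named after their values were seen.

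Alternatives were another normalization, centring, pseudocount, filters, mean of probe sets, variance models, weights per array, a block for replicate number, and leaving out arrays.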

Additional observations from a re-analysis of the deposited data

How the results depend on the processing

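Across 16 alternatives the differences of the 15 mitochondrial genes were positive. Members higher at an unadjusted p under 0.05, 17 over all arrays, numbered 12 to 23, beside 3.71% to 13.2% of all genes. The 12 stood beside 3.71% and the 23 beside 6.79%. Genes past an adjusted p of 0.05, 4 over all arrays, were 9 with a pseudocount of 16, 2 after the dimmer probe sets, up to the 50th percentile, were dropped (where Acad10, Acox3 and Decr2 gave no value), 10 with trend and robust eBayes, 9 with array weights, and 1 to 5 without each array in turn. Acaa2 passed with the pseudocount of 16, with trend and robust eBayes and with array weights (limma adjusted p = 0.0446, 0.049 and 0.0353). With the replicate number as a block the count was 1 and members higher were 18, beside 8.61% of all genes. The numbers were not taken as pairing the arrays, since deviations of same-numbered arrays correlated at 0.61, 0.10 and 0.03, and not every array correlated best with its own number. The mitochondrial minus peroxisomal median, 0.45, ranged from 0.20 to 0.59 without each array in turn, and the long minus shorter chain median, 0.25, from 0.22 to 0.39 and was 0.17 with the mean of all probe sets. Genes of the other lists higher at an unadjusted p under 0.05, 16 over all arrays, ranged from 8 to 19 without each array in turn. The 8 stood beside 7.29% of all genes and the 19 beside 13.2%. There were 20 with array weights and 20 with the block, beside 10.3% and 8.61%. Leaving out control replicate 2 and YY1bKO replicate 1 together, chosen after seeing the data, gave 1 gene past the adjusted threshold. The organelle difference was then 0.25 and the chain length difference 0.38. In that fit 9 genes of the other lists were higher, beside 3.71% of all genes. The differences of Pecr and Abcd2 were 0.17 and -0.05. Signs also turned for values near 0. Hsd17b4 was 0.00 with array medians subtracted, 0.01 with the mean of probe sets, 0.05 with array weights and -0.23 to 0.15 without each array in turn. Scp2 was 0.11 with the mean of probe sets and -0.24 to 0.11 without each array. Without each array Pecr ranged from -1.73 to 0.23, Hacl1 from -0.02 to 0.57 and Abcd3 from -0.23 to 0.47. For all of these the cause was not tested.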
